A study of Drosophila melanogaster with 90 samples.

Results

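The glutathione S-transferase genes described here are the rows of the count table whose symbols begin with GstD, GstE, GstO, GstS, GstT or GstZ. They number 35 of 14514 genes: 11 of the D (delta) class, 14 of the E (epsilon) class, 3 of the O (omega) class, 1 of the S (sigma) class, 4 of the T (theta) class and 2 of the Z (zeta) class. RNA was sequenced from whole Drosophila melanogaster females of 5 inbred lines, Beijing, Ithaca, Netherlands, Tasmania and Zimbabwe, all from the Global Diversity Lines; the Zimbabwe line was caught in Africa and is called a recent migrant by the submitters. Females were either virgin or mated once to a virgin male of 1 of the same 5 lines, which gave 5 virgin groups and 25 crosses, named below as female x male. All flies were aged 3 to 5 days and kept at 25 °C. Freezing followed the start of mating by 5 to 6 h, and virgins of the same age were frozen alongside. Each library held RNA of 5 to 10 pooled females, replicates came from separate bottles, and each line is a single inbred stock, so that a difference between lines is a difference between 5 stocks and not between populations. The study asks how female and male genotype shape the response to mating.

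Glutathione S-transferases join the tripeptide glutathione to electrophilic compounds, which makes insecticides, plant toxins and products of lipid peroxidation more soluble and easier to export. In insects the delta and epsilon classes are expanded and are best known for insecticide metabolism, while the omega, sigma, theta and zeta classes are shared with mammals. Glutathione itself is made by glutamate-cysteine ligase and glutathione synthetase, and in flies many detoxification genes are induced through the transcription factor Cnc, which is held in check by Keap1.

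The 89 libraries with counts, 15 of virgins and 74 of mated females, held 4407704 to 38799730 counts each. Transcripts of the yolk protein genes Yp1, Yp2 and Yp3, which mark adult females, were summed with those of the genes Lsp2 and to. The sum lay between 16240 and 56130 CPM (counts scaled by the size of the library to a common total) in every library. Testis transcripts, which females should lack, summed to over 10 CPM in 6 mated libraries and reached 1504 CPM in Ithaca x Zimbabwe replicate 1 and 1415 CPM in Netherlands x Beijing replicate 2. The share of RNA from another line was estimated from genes that are silent in the labelled female line, once with silence judged in its virgins and once in all its libraries. Netherlands x Ithaca replicate 2 came out at 92.6% Ithaca by the first and 13.5% Tasmania by the second. Beijing x Netherlands replicate 2 came out at 16.9% and 19.1% Zimbabwe, and Tasmania virgin replicate 3 at 1.82% Netherlands and 17.4% Zimbabwe. In Netherlands females the first estimate had only 2 genes for Ithaca. The second required 5 genes, had 3 for Ithaca, and so gave no Ithaca share. In Tasmania females the first had no gene for Zimbabwe. For these lines the 2 estimates cannot be compared. These 3 libraries and the 6 with testis transcripts, 9 in all, stood apart, and results that move without them are given both ways. Ithaca x Zimbabwe replicate 3 also came out at 25.5% Netherlands by the first estimate and 22.4% Zimbabwe by the second, yet was kept, since its cross would have had no library left. The part of male or other-line RNA in the results was otherwise not tested.

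Per kilobase of exon, GstD1 was the most abundant member. GstD1 encodes an enzyme known for DDT breakdown and for its response to oxidative stress. It stood at 905.5 CPM per kb on average, with single libraries from 582 to 1669 CPM per kb, and alone made up 39.4% of the summed level of the family. GstE12 followed at 215.5, GstE6 at 173.2, GstT4 at 123.7, GstE9 at 111.9 and GstS1 at 91.2 CPM per kb. GstS1, the sigma-class enzyme, is known as an abundant protein of the flight muscle. Beneath GstD1 the D class was low: its median member stood at 5.76 CPM per kb, against 27.0 for the E class, 67.3 for the O class and 42.3 for the T class. GstO2 led the O class at 68.1 CPM per kb, and GstZ1 led the Z class at 13.2 CPM per kb. The zeta class is related to maleylacetoacetate isomerase, an enzyme of tyrosine breakdown. GstD6 was the lowest member, with 189 counts over all libraries and none in 14 of them; it was the 1 member that did not pass the filter on low counts, so that 34 members were tested.

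**Figure D1:**
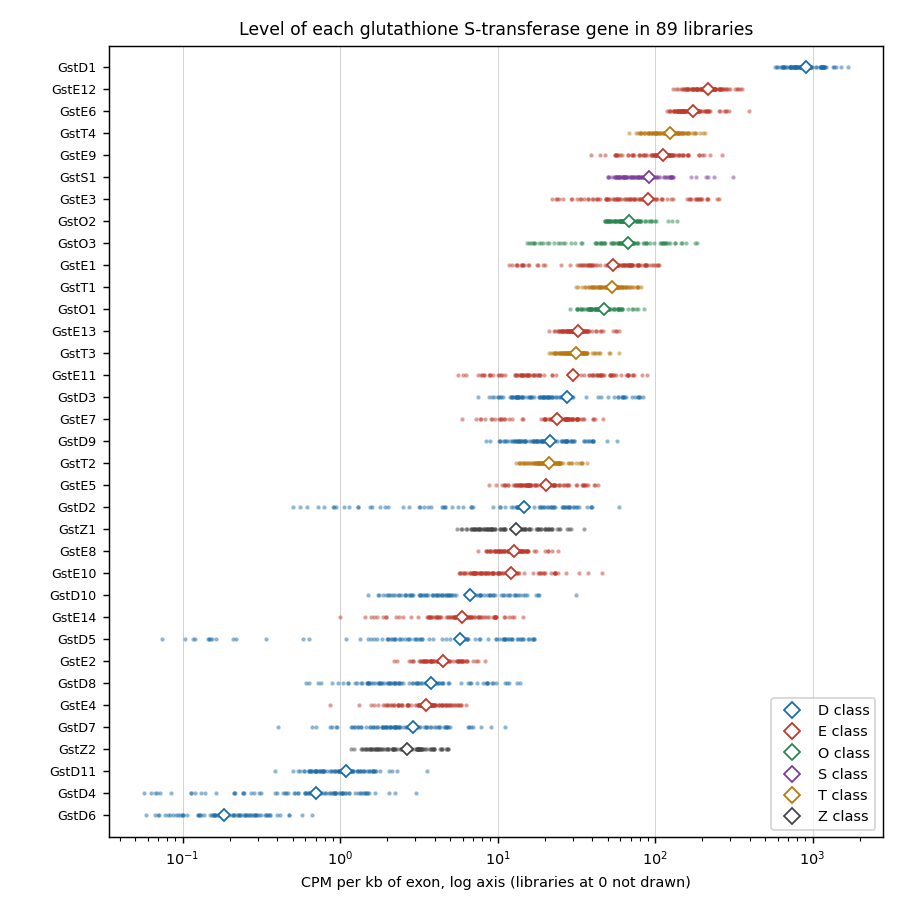
Level of each of the 35 members in 89 libraries, in CPM per kb of exon on a log axis; points are libraries, open diamonds are means over libraries, and colours mark the class. GstD1 lies at 905.5 CPM per kb, above the next member, GstE12, at 215.5, and GstD6 is lowest at 0.185.

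The members are grouped on the chromosomes in the BDGP6 assembly: 17 lie on arm 2R, 13 on 3R, 3 on 3L and 2 on X. GstD2 to GstD8 form an unbroken run on 3R, with GstD10, GstD9 and GstD1 in another, GstE10 with GstE1 to GstE3 and GstE4 to GstE9 form 2 runs on 2R, and GstO1 with GstO2, GstT1 with GstT2 and GstZ1 with GstZ2 are neighbouring pairs. Related copies can share reads, and the share of such reads was not tested. Exons of GstE1 and GstE10 overlap by 20 bases on opposite strands, those of GstO2 and se by 61 bases and those of GstT2 and CG12926 by 223 bases, also on opposite strands. Shorter overlaps on opposite strands join GstE9 with imd (40 bases), GstE12 with CG3894 (33 bases) and GstE13 with CG18659 (6 bases). The use of strand in counting is not given in the sources used here, so reads in these overlaps cannot be assigned with certainty.

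Female line was the factor with which most members differed. Among virgins 20 of 34 members (58.8%) differed between the 5 lines at an adjusted p under 0.05 in edgeR's quasi-likelihood test with Benjamini-Hochberg adjustment over 12045 genes, where 27.5% of all genes did. Among mated females 33 of 34 (97.1%) differed, against 70.1% of all genes. The exception was GstE4, with an adjusted p of 0.236 in edgeR's test and mated medians from 2.65 CPM in Zimbabwe to 3.35 CPM in Tasmania. The fitted distance from the highest to the lowest mated line had a median of 2.17-fold over the members and 1.48-fold over all genes tested. It was at least 2-fold for 20 members (58.8%) against 31.6% of genes, and at least 4-fold for 11 members (32.4%) against 18.4%. Summed midgut markers also differed between lines, with mated medians from 4569 CPM in Beijing to 9960 CPM in Ithaca, and eggshell markers had mated medians from 3266 CPM in Beijing to 6910 CPM in Zimbabwe; their part in the line differences was not tested. Counts from whole females cannot tell fewer cells of a type from less RNA per cell, and counts against 1 reference genome cannot tell lower expression from reads of a divergent or missing copy that did not align.

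By class, the median of that distance was 2.17 on the log2 scale for the 10 D-class members tested, 1.16 for the 14 E-class members, 0.71 for the 3 O-class members and 0.57 for the 4 T-class members. Each of the 4 T-class members, GstT1 to GstT4, differed between mated lines, yet by 1.41-fold to 1.55-fold. GstD1 differed between mated lines by 1.64-fold, from Ithaca at 946 ± 133 CPM (SD, n = 14) to Zimbabwe at 572 ± 54.7 CPM (SD, n = 15), with an adjusted p of 3.75e-08 in edgeR's test. GstE12 and GstO2, the leading members of their classes, differed by 1.43-fold and 1.46-fold between mated lines. GstZ1 and GstS1, the leading members of the Z and S classes, differed by 2.98-fold and 2.02-fold.

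**Figure D2:**
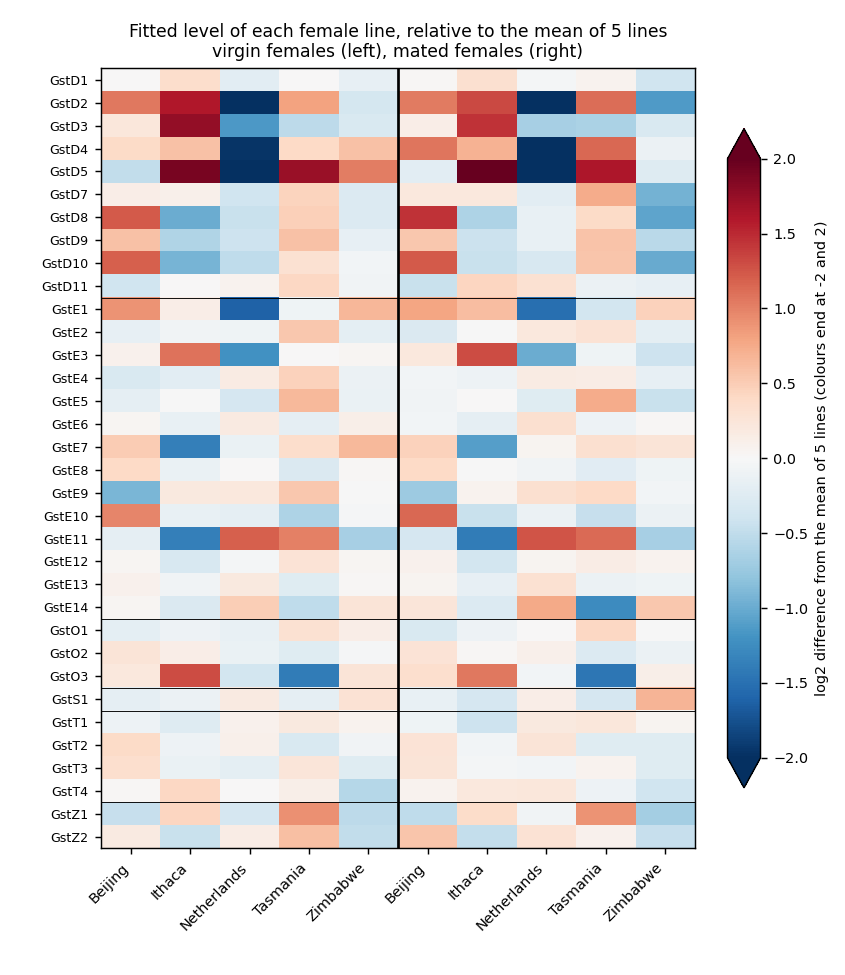
Fitted log2 level of each of 34 members in each female line, relative to the mean of the 5 lines, for virgins at left and mated females at right; red is higher and blue lower, and colours end at -2 and 2. GstD2, GstD4 and GstD5 are lowest in Netherlands, GstE11 and GstE7 are lowest in Ithaca, and GstO3 is lowest in Tasmania, on both sides.

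The 4 neighbouring genes GstD2, GstD3, GstD4 and GstD5 were lower in mated Netherlands females than in the mean of the other 4 lines. The log2 differences were -2.92 (SE 0.27) for GstD2, -0.83 (SE 0.12) for GstD3, -3.52 (SE 0.34) for GstD4 and -4.06 (SE 0.32) for GstD5. In the same order, adjusted p-values were 4.66e-14, 4.30e-08, 2.96e-13 and 5.28e-17 in edgeR's quasi-likelihood test. GstD3 was not low in Netherlands alone. Relative to the mean of all lines, its fitted mated log2 level was -0.67 in Netherlands and -0.63 in Tasmania. Zimbabwe stood at -0.30, Beijing at 0.14 and Ithaca at 1.45. Of the other D-class genes nearby, GstD7, GstD8, GstD9 and GstD1 did not pass the same test. GstD7 stood at -0.26 (adjusted p = 0.351) and GstD8 at -0.19 (adjusted p = 0.452) on the log2 scale in edgeR's test. In that test GstD9 stood at -0.19 (adjusted p = 0.171) and GstD1 at -0.04 (adjusted p = 0.738). For GstD10, beside GstD9, the result of that test is not given here. Its fitted mated log2 level in Netherlands was -0.32 relative to the mean of all lines. Ithaca, at -0.45, and Zimbabwe were lower still for GstD10, and Beijing and Tasmania were higher. GstD6, which lies beside GstD5, was too low to test: it was at 0 in the 3 Netherlands virgin libraries, and mated Netherlands libraries ranged from 0 over a median of 0.0630 to 0.246 CPM. The 3 Netherlands virgin libraries held 0.0869, 0 and 0.175 CPM of GstD4, and the Tasmania ones 0.287, 0.527 and 0.525 CPM. GstD4 was thus low in every line, and its difference between virgin lines did not pass (adjusted p = 0.0769 in edgeR's test).

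GstD5 showed the widest distance between lines. The 3 virgin Netherlands libraries held 0.0869, 0.130 and 0.175 CPM of GstD5, the Ithaca ones 4.94, 14.3 and 8.22 CPM, and the Tasmania ones 5.45, 11.9 and 7.28 CPM. Mated Netherlands females ranged from 0 over a median of 0.123 to 5.37 CPM (n = 15), mated Ithaca females from 6.41 over 10.8 to 14.4 CPM (n = 14), and mated Tasmania females from 3.71 over 9.22 to 14.03 CPM (n = 15). Ithaca and Tasmania were therefore high, Netherlands was near 0, and Beijing and Zimbabwe lay between them, with mated medians of 2.27 and 2.02 CPM. Ithaca exceeded Netherlands 40.6-fold among mated females and 66.1-fold among virgins, with adjusted p-values of 1.70e-22 and 5.08e-08 for line in edgeR's test. The mated Netherlands library at 5.37 CPM was Netherlands x Ithaca replicate 2, described above, and the next at 0.913 CPM was Netherlands x Beijing replicate 2. With the 9 libraries left out, Netherlands reached 0.533 CPM at most and lay below every library of the other lines, the lowest of which held 1.12 CPM, and its log2 difference from the other 4 lines was -5.20 (SE 0.29).

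GstD2 was likewise highest in Ithaca and lowest in Netherlands in both states, at higher levels than GstD5. Its 3 virgin Netherlands libraries held 0.956, 0.455 and 1.13 CPM, against 16.4, 28.9 and 20.7 CPM in Ithaca virgins. Mated Netherlands females ranged from 0.369 over a median of 0.780 to 16.3 CPM, and mated Ithaca females from 9.75 over 19.1 to 28.7 CPM. Ithaca exceeded Netherlands 12.7-fold when mated (adjusted p = 1.13e-18 for line in edgeR's test), and Zimbabwe was also low, at a mated median of 2.76 CPM. The Netherlands library at 16.3 CPM was again Netherlands x Ithaca replicate 2. Without the 9 libraries the highest mated Netherlands value was 1.48 CPM and the log2 difference of GstD2 from the other 4 lines moved from -2.92 to -3.65.

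GstD3 was set apart by the Ithaca line. Ithaca virgins held 49.2, 62.6 and 55.8 CPM, while virgins of the other 4 lines stayed between 6.63 and 22.6 CPM. Mated Ithaca females ranged from 34.1 over a median of 47.0 to 59.8 CPM, and mated Netherlands females from 5.63 over 9.26 to 46.8 CPM. Apart from the Netherlands x Ithaca library at 46.8 CPM, the Ithaca libraries did not overlap with those of other lines. The fitted distance between Ithaca and Netherlands was 4.34-fold among mated females (adjusted p = 2.97e-23 in edgeR's test).

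GstD8 and GstD10 followed another order, with Beijing highest and Zimbabwe lowest when mated. GstD8 differed 5.65-fold and GstD10 4.69-fold between these lines, with adjusted p-values of 6.17e-16 and 6.08e-15 in edgeR's test. Mated Beijing females held 6.12 to 27.7 CPM of GstD10 with a median of 11.3 CPM, and mated Zimbabwe females 1.32 to 4.51 CPM with a median of 2.27 CPM. These groups did not overlap for GstD10. The Beijing libraries at 27.7 and 6.12 CPM were Beijing x Netherlands replicate 2 and Beijing x Zimbabwe replicate 1. Without the 9 libraries, mated Beijing females held 6.36 to 16.05 CPM. Here and below, the highest and lowest lines were picked from the same values, so a lack of overlap between them is a description. The share of all genes whose extreme lines do not overlap is not given. GstD9 was higher in Beijing and Tasmania, by 0.68 (SE 0.10) and 0.72 (SE 0.10) on the log2 scale against the mean of the other 4 lines, with adjusted p-values of 7.52e-08 and 2.32e-08 in edgeR's test.

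**Figure D3:**
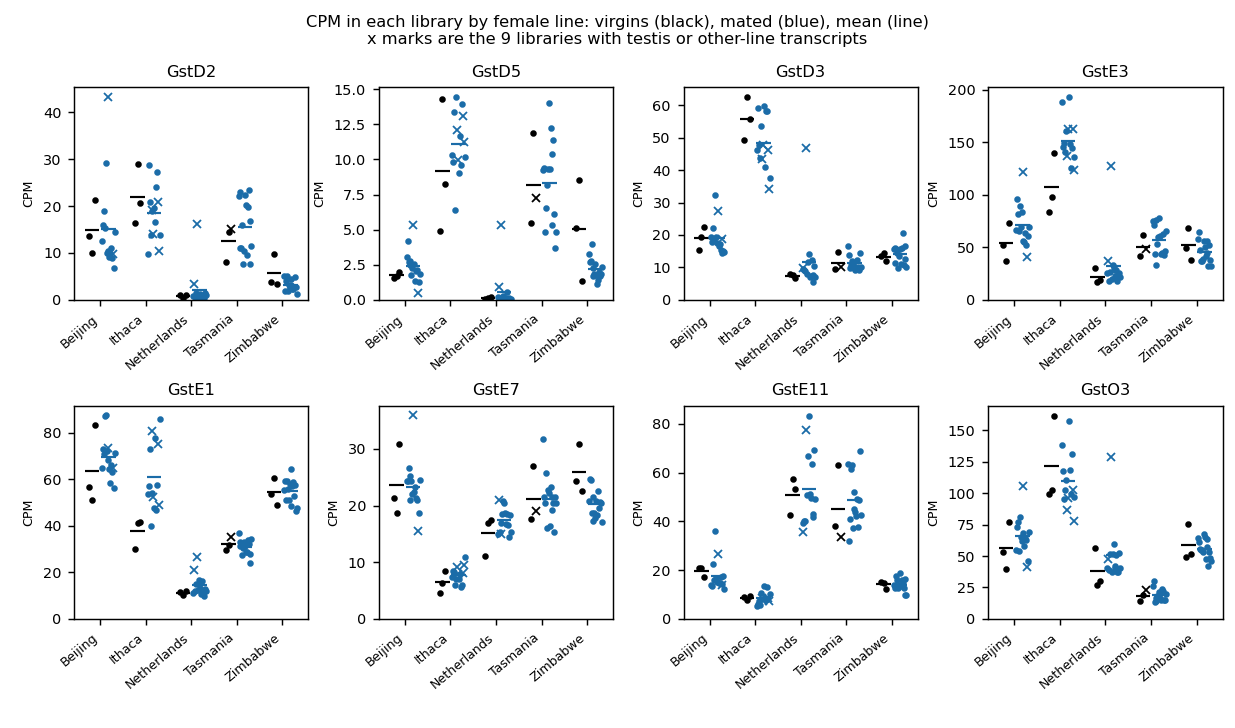
CPM of 8 members in each library by female line, with virgins in black, mated females in blue, means as lines and the 9 libraries that stood apart as x marks. Netherlands libraries are lowest for GstD2, GstD5 and GstE1, with 1 mated library at 5.37 CPM for GstD5, and Ithaca libraries are lowest for GstE7 and GstE11.

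Within the E class, GstE1 had the smallest p-value of all members for female line. Netherlands virgins held 11.6, 10.2 and 11.9 CPM of GstE1, Tasmania virgins 29.6, 31.9 and 35.3 CPM, Ithaca virgins 29.9, 41.4 and 41.7 CPM, Zimbabwe virgins 53.6, 60.4 and 49.0 CPM, and Beijing virgins 56.5, 50.9 and 83.4 CPM. Netherlands was below every other virgin library. Mated Netherlands females ranged from 9.82 over a median of 12.98 to 26.4 CPM and mated Beijing females from 56.2 over 68.2 to 87.6 CPM, which was a fitted difference of 4.90-fold (adjusted p = 5.53e-30 among mated females and 7.80e-13 among virgins in edgeR's test). Without the 9 libraries, no Netherlands library exceeded 16.6 CPM and no library of another line fell below 24.0 CPM. GstE10, the neighbour of GstE1, did not pass the same test: its log2 difference in mated Netherlands females was -0.16 (adjusted p = 0.326 in edgeR's test), and its highest line was Beijing, at a mated median of 26.2 CPM against 8.10 CPM in Tasmania, the lowest.

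GstE11 was high in Netherlands and Tasmania and low in Ithaca. Netherlands virgins held 42.6, 57.2 and 53.1 CPM, Tasmania virgins 38.1, 63.1 and 33.6 CPM, and Ithaca virgins 8.77, 7.73 and 9.47 CPM. The mated ranges were 35.8 to 83.3 CPM in Netherlands with a median of 49.6, 32.0 to 68.9 CPM in Tasmania with a median of 44.9, and 5.33 to 13.4 CPM in Ithaca with a median of 8.03. Netherlands exceeded Ithaca 6.26-fold, and these lines did not overlap (adjusted p = 9.38e-30 among mated females in edgeR's test).

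GstE7 was the 1 member for which a line did not overlap with the other 4 over all libraries. Ithaca libraries, virgin and mated, held 4.57 to 10.97 CPM of GstE7, and no library of another line held less than 11.1 CPM. A line stood apart in this way for 2.08% of all genes tested. Its map neighbours differed from it: in mated Ithaca females GstE7 was lower by a log2 difference of -1.37 (SE 0.08), GstE6 by -0.23 (SE 0.09) with an adjusted p of 0.0330, and GstE8 stood at -0.01 (SE 0.08) with an adjusted p of 1 in edgeR's test. With the 9 libraries left out, 5 members had a line that stood apart, GstD3, GstD5, GstE1, GstE7 and GstO3, where 3.11% of all genes did.

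GstE3 was highest in Ithaca and lowest in Netherlands. Ithaca virgins held 84.0, 98.1 and 139 CPM, and Netherlands virgins 30.2, 16.8 and 18.5 CPM. Mated Ithaca females ranged from 123 over a median of 147 to 193 CPM, mated Netherlands females from 17.6 over 25.4 to 127 CPM. The high Netherlands value was Netherlands x Ithaca replicate 2, and without the 9 libraries the highest was 32.9 CPM. The fitted difference was 4.91-fold in mated females (adjusted p = 5.27e-20 in edgeR's test).

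GstE14, which encodes the enzyme Noppera-bo needed for making ecdysteroid hormones, was lowest in Tasmania and highest in Netherlands. Mated Tasmania females ranged from 1.01 over a median of 1.98 to 4.11 CPM, and mated Netherlands females from 6.39 over 8.42 to 14.6 CPM. The groups did not overlap, and the fitted difference was 4.04-fold (adjusted p = 8.22e-19 in edgeR's test). Among virgins the distance was 1.99-fold (adjusted p = 0.0468), with 5.45, 2.86 and 3.60 CPM in Tasmania and 11.1, 6.10 and 6.46 CPM in Netherlands.

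In the O class, whose mammalian members reduce dehydroascorbate, GstO3 carried most of the difference between lines. Ithaca virgins held 99.6, 102.5 and 161.9 CPM, and Tasmania virgins 13.9, 18.7 and 23.0 CPM. Mated Ithaca females ranged from 78.3 over a median of 102.7 to 157.6 CPM and mated Tasmania females from 13.6 over 17.1 to 29.7 CPM, without overlap. Ithaca exceeded Tasmania 5.72-fold (adjusted p = 1.61e-23 among mated females in edgeR's test), while GstO1 and GstO2 differed by 1.64-fold and 1.46-fold between their own highest and lowest lines.

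GstZ1 was highest in Tasmania, at 17.3, 26.7 and 16.6 CPM in virgins and 16.5 to 32.3 CPM in mated females, with a mated median of 19.4 CPM. Its lowest line was Zimbabwe, at 6.51, 8.46 and 7.45 CPM in virgins and 5.07 to 8.86 CPM in mated females. The lines did not overlap, and the mated difference was 2.98-fold (adjusted p = 9.07e-20 in edgeR's test). GstS1 differed 2.02-fold between mated Zimbabwe and Ithaca females (adjusted p = 5.73e-07 in edgeR's test), and its adjusted p among virgins was 0.832. Mated Zimbabwe females spread from 133 over a median of 289 to 710 CPM of GstS1, and mated Ithaca females from 122 over 145 to 286 CPM, so that the lines overlapped. Within Zimbabwe the values followed the replicate number: 412 to 710 CPM in the 5 libraries of replicate 1, 259 to 297 CPM in those of replicate 2 and 133 to 144 CPM in those of replicate 3. The part of replicate in the GstS1 difference was not tested.

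Of the other members, GstE9 was 2.19-fold and GstE5 2.29-fold higher in mated Tasmania females than in their lowest lines, Beijing and Zimbabwe. GstT4 differed 1.55-fold between mated Netherlands and Zimbabwe females, and Zimbabwe was below the mean of the other 4 lines by a log2 difference of -0.50 (SE 0.07, adjusted p = 5.90e-08 in edgeR's test). GstD7 was higher in mated Tasmania females by 0.93 (SE 0.19) and lower in Zimbabwe, at -1.19 (SE 0.22), on the log2 scale.

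Every line had members that were higher and members that were lower than in the other lines. Against the mean of the other 4 lines, mated Beijing females had 15 members higher and 6 lower at an adjusted p under 0.05, where 37.8% of all genes were called, 19.6% higher and 18.3% lower. Ithaca had 11 members higher and 13 lower (43.5% of genes, 23.7% higher and 19.8% lower). Netherlands had 11 higher and 7 lower (34.8% of genes, 18.4% higher and 16.3% lower), and Tasmania 15 higher and 9 lower (30.9% of genes, 16.4% higher and 14.5% lower). Zimbabwe had 4 higher and 16 lower (33.2% of genes, 16.9% higher and 16.3% lower). Among the 33 members called, Zimbabwe was the highest mated line for 1, GstS1, and the lowest for 9. Summed over the family, the level in mated females ran from 1991 ± 189 CPM per kb (SD, n = 15) in Zimbabwe to 2606 ± 287 CPM per kb (SD, n = 14) in Ithaca. The D class without GstD1 summed to 130 ± 19.2 CPM per kb in Ithaca, 50.3 ± 33.0 in Netherlands and 47.6 ± 7.34 in Zimbabwe (SD). The Netherlands mean includes Netherlands x Ithaca replicate 2 at 163.5 CPM per kb, and by medians Netherlands, at 42.7, was below Zimbabwe, at 46.5 CPM per kb.

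Of the 20 members called in both states, 17 had the same highest line, 14 the same lowest line and 12 both. For all 3275 genes called in both states, these shares were 76.2%, 70.3% and 52.3%, against 85.0%, 70.0% and 60.0% of the members.

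Few members, and few of all genes, were called for mating. In the mean over the 5 lines 1 of 34 members (2.94%) was called by edgeR's quasi-likelihood test at an adjusted p under 0.05, where 5.63% of 12045 genes were (4.16% higher and 1.47% lower after mating), and 7 members had an unadjusted p under 0.05. The share of all genes at that unadjusted threshold is not set beside the counts given here and below. The median change was 0.03 on the log2 scale over the members and 0.01 over all genes tested. Summed Malpighian tubule markers had a virgin median of 265 CPM and a mated median of 332 CPM, midgut markers medians of 5201 and 6085 CPM and eggshell markers medians of 4458 and 4964 CPM, and their part in the mating results was not tested. The member called was GstZ2, which fell by 0.41 on the log2 scale (SE 0.09, 1.33-fold, adjusted p = 0.00194 in edgeR's test). It was lower after mating in 5 of 5 lines. The same direction in all 5 lines, higher or lower, was seen for 8.82% of members and 17.4% of all genes tested.

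GstZ2 is a zeta-class gene beside GstZ1. In Tasmania its 3 virgin libraries held 11.3, 11.2 and 11.1 CPM, and its 15 mated libraries ranged from 3.64 over a median of 5.86 to 9.22 CPM, without overlap. Ithaca virgins held 5.16, 5.82 and 5.36 CPM and mated females 3.17, 3.84 and 6.64 CPM at the lowest, median and highest. Beijing virgins held 7.75, 7.26 and 10.2 CPM against 5.71, 8.20 and 10.9 CPM after mating, Netherlands virgins 9.99, 5.72 and 8.81 CPM against 3.99, 7.35 and 10.4 CPM, and Zimbabwe virgins 5.01, 7.12 and 3.63 CPM against 2.74, 4.03 and 6.59 CPM. In these 4 lines the mated and virgin libraries overlapped. Within Tasmania alone GstZ2 fell by 0.93 on the log2 scale (SE 0.19, adjusted p = 0.00440 in edgeR's test). This call was lost when Tasmania virgin replicate 3 was left out (adjusted p = 0.0828, log2 change -0.93), and the call in the mean of lines was lost without replicate 1 or replicate 3 of all groups (adjusted p = 0.0599 and 0.0979 in edgeR's test).

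**Figure D4:**
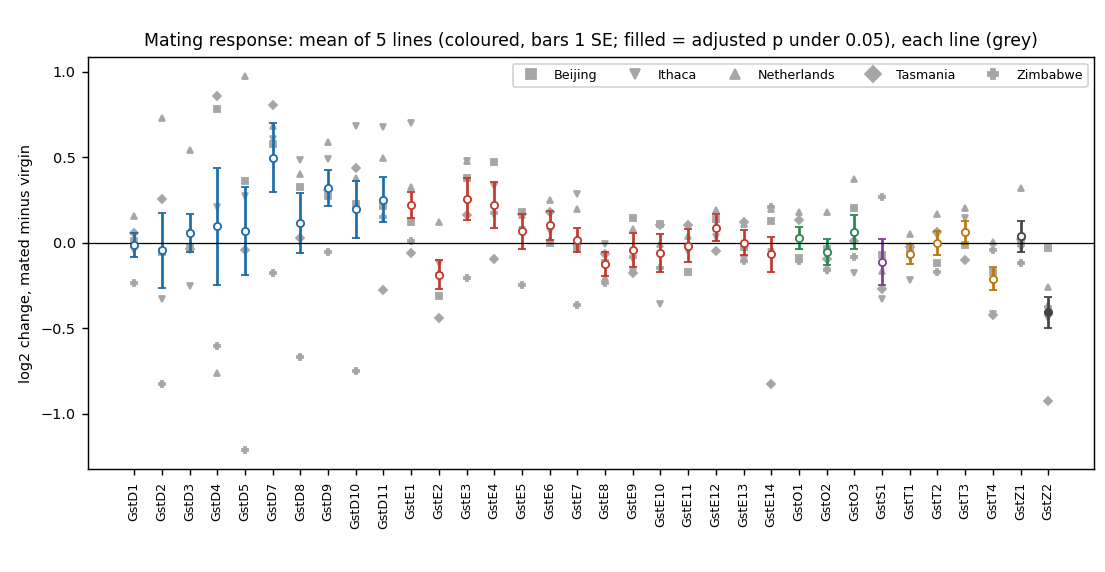
Log2 change from virgin to mated for 34 members: coloured points are the mean of 5 lines with 1 SE, filled where the adjusted p is under 0.05, and grey symbols are the single lines. GstZ2, at -0.41, is the filled point; GstD7 lies highest, at 0.50 with an SE of 0.20 and an adjusted p of 0.165 in edgeR's test.

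The next members by p-value missed the threshold. GstT4, a theta-class gene on X, stood at -0.21 (SE 0.07, adjusted p = 0.0561), GstD9 at 0.32 (SE 0.11, adjusted p = 0.0649) and GstE1 at 0.22 (SE 0.08, adjusted p = 0.0752) on the log2 scale in edgeR's test. Ithaca virgins held 235, 189.5 and 246 CPM of GstT4, and mated Ithaca females 133 to 217 CPM with a median of 168. Netherlands virgins held 252.5, 124 and 129 CPM, and without the first of these the change of GstT4 was -0.13 (adjusted p = 0.288 in edgeR's test). GstD9 was higher after mating in 4 of 5 lines and GstT4 lower in 4 of 5. The calls of both depended on the setting: with a covariate for the slope of expression on gene length in each library, GstT4 and GstD9 had adjusted p-values of 0.0165 and 0.0276, and 5 members were called. GstD1, the most abundant member, had a log2 change of -0.01 (SE 0.07).

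**Figure D5:**
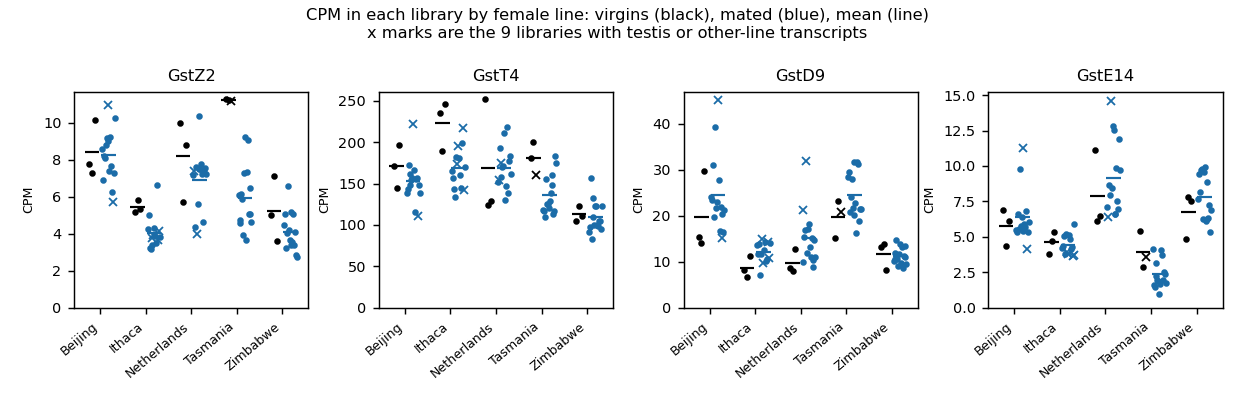
CPM of GstZ2, GstT4, GstD9 and GstE14 in each library by female line, with virgins in black, mated females in blue, means as lines and the 9 libraries that stood apart as x marks. Tasmania virgins of GstZ2 lie at 11.1 to 11.3 CPM, above all mated Tasmania libraries, and mated Tasmania libraries of GstE14 lie below 4.12 CPM.

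Within single lines, 1 member was called in Tasmania (GstZ2, 0.822% of genes called) and none in Beijing (0.0249%), Ithaca (0.174%), Netherlands (0.125%) or Zimbabwe (0.083%). Unadjusted p-values under 0.05 in edgeR's test numbered 0 members in Beijing, 4 in Ithaca, 2 in Netherlands and 3 in Zimbabwe, and DESeq2 called 0, 1, 0 and 0 members in these lines. The 1 was GstE1 in Ithaca, with virgins at 29.9, 41.4 and 41.7 CPM and mated females from 40.1 over a median of 55.6 to 86.2 CPM. Its log2 change there was 0.70 (SE 0.18, adjusted p = 0.0712 in edgeR's test), and it passed when the 6 libraries with testis transcripts were left out. Mated Ithaca values followed the replicate number here as well, with 72.9 to 86.2 CPM in the 5 libraries of replicate 3 and 40.1 to 57.6 CPM in the others.

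The response to mating was not called as different between lines for any member. In edgeR's test of female line by mating 0 of 34 members had an adjusted p under 0.05, where 0.0664% of genes did, 4 had an unadjusted p under 0.05, and DESeq2 called 0. The smallest p was that of GstE14 (adjusted p = 0.957 in edgeR's test), with a log2 change of -0.82 (SE 0.23) in Tasmania and 0.21 (SE 0.24) in Zimbabwe. GstZ2 had an adjusted p of 1 in this test, so that its change in Tasmania was not shown to differ from that in other lines.

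The line of the male was not called for any member. In edgeR's test among mated females 0 of 34 had an adjusted p under 0.05, where 0.0083% of genes did, and DESeq2 called 0. An unadjusted p under 0.05 was found for 8 members. The share of all genes at that threshold is not given here, so these 8 are not shown to be particular to the family. GstD5 had the smallest p (adjusted p = 0.389 in edgeR's test). Its mean with Zimbabwe males was the lowest of the 5 male lines in Beijing, Netherlands and Tasmania females, but not in Ithaca or Zimbabwe females. Among Tasmania females the 3 libraries with Zimbabwe males held 3.71, 4.83 and 6.08 CPM and those with Netherlands males 9.30, 12.2 and 14.03 CPM, while the means of Ithaca females ran from 10.2 to 12.2 CPM over the 5 male lines. The adjusted p of GstD5 for male line was 0.86 with the 9 libraries left out.

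Crosses added no call. For female line by male line 0 of 34 members passed in edgeR's test, where 3.53% of genes did, 2 (GstD2 and GstD5) had an unadjusted p under 0.05 and DESeq2 called 0; GstD5 again had the smallest p (adjusted p = 0.482). For males of the same line against males of other lines 0 of 34 passed, where 0% of genes did, 0 had an unadjusted p under 0.05 and DESeq2 called 0. GstE4 had the smallest p there, with an adjusted p of 1 in edgeR's test.

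Across the libraries of a group the members varied together. After the mean of each of the 30 groups was removed, the median Pearson correlation over 561 pairs of members was 0.400 across 89 libraries, and 96.4% of pairs were above 0, where the median over all pairs of genes tested was 0.00134. It was 0.489 for pairs of D-class members, 0.424 for pairs of E-class members and 0.404 for the 17 neighbouring pairs. The highest was 0.900, for GstE6 with GstO2, which lie on different arms. Values of a library share its depth and scaling. Members were short, with a median exon length of 884 bases against 1868 bases over all tested genes with a length, and each of the 34 correlated negatively with that library's slope on gene length, fitted over all genes (median -0.596, against -0.201 for all genes). With that slope removed, the median over pairs of members was 0.139. Midgut marker sums also moved with the members, with a median correlation of 0.350 and 33 of 34 positive. The part of these measures in the shared variation was not tested further, and the correlations are a description.

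The other genes of the pathway, 41 genes in 7 lists of which 39 were tested, gave more calls for female line than for mating, as did all genes. Of these, 30 differed between mated lines, where 70.1% of all genes did, 14 between virgin lines, where 27.5% did, and 5 with mating, where 5.63% did, while male line, the cross and the same-line contrast called 0 in edgeR's test. For glutathione synthesis, Gclc and Gclm, the catalytic and modifier subunits of glutamate-cysteine ligase, differed between mated lines by 1.501-fold and 1.24-fold, and had log2 changes of -0.0043 (SE 0.07) and 0.06 (SE 0.06) with mating. The 3 microsomal members, Mgstl, CG33177 and CG33178, which are unrelated in sequence to the cytosolic classes, each differed between mated lines, by 2.52-fold, 3.25-fold and 1.95-fold, and none was called with mating. In the gamma-glutamyl list 6 of 7 genes differed between mated lines (70.1% of all genes) and CG10365 rose with mating, by 0.17 on the log2 scale (SE 0.05, adjusted p = 0.0233 in edgeR's test).

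Of the regulators, Keap1 rose with mating by 0.21 on the log2 scale (SE 0.07, adjusted p = 0.0481 in edgeR's test) and differed 2.10-fold between mated lines, from Ithaca to Beijing. The transcription factor gene cnc stood at -0.03 (SE 0.10) with mating and had an adjusted p of 0.331 for mated line in edgeR's test. The thiol redox list, with peroxiredoxins, thioredoxins and superoxide dismutases, had 9 of 16 tested genes called between mated lines (70.1% of all genes). With mating 0 were called. Grx-1, Trxr-2 and CG15116 could not be judged for mating, since their log2 changes had SEs of 5693, 6355 and 235. Grx-1 and Trxr-2 were also among the genes not called between mated lines, so the share of this list is not compared with that of all genes. The list of P450 genes known from insecticide metabolism had 6 of 6 genes called between mated lines (70.1% of all genes) and 3 with mating (5.63% of all genes): Cyp6a2 and Cyp6a8 rose by 0.52 (SE 0.15) and 0.92 (SE 0.16) on the log2 scale, and Cyp6g1 fell by 0.31 (SE 0.07), with adjusted p-values of 0.0200, 4.23e-05 and 0.00255 in edgeR's test. MRP, an exporter of glutathione conjugates, differed 1.65-fold between mated lines and was not called with mating.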

How the data were processed

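RNA of pooled whole females was sequenced as single-end reads of 100 bases, per the labels' protocols. The deposited table holds raw read counts per gene; FastQC, Trimmomatic, TopHat2, HTSeq and the dm3 build are named in the submitters' processing notes, while versions, options, use of strand and annotation are not given in the sources used here. Of 90 labelled libraries 89 were used (Ithaca x Zimbabwe replicate 2 is not analysed here), and 8 rows with a number in place of a symbol were left out. Symbols were matched to BDGP6 genes for 14321 of 14514 rows (98.7%) and all 35 members; exon lengths come from that annotation, and no dm3 coordinates were used.

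Counts were fitted with edgeR 4.0.16 in R 4.3.3 (filterByExpr, TMM, robust quasi-likelihood, 1 mean for each of 30 groups), with Benjamini-Hochberg adjustment over 12045 genes and a threshold of 0.05. CPM values use TMM library sizes, with factors from 0.74 to 1.10. Within-group correlations used log2(CPM + 0.5). The fitting code was tested on simulated data with known changes. Replicates came from separate bottles, and every replicate pair differed by more than counting noise (chi-square of at least 12.7 per degree of freedom over 88 pairs). Libraries that share a replicate number across groups had a median correlation of deviations of 0.0839 (-0.908 to 0.882), with 46.6% of 1276 pairs over 0.1, so the numbers were not taken as pairs.

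Alternatives were DESeq2 1.42.0 (its own test, and its size factors in edgeR), no low-count filter, a replicate block, a covariate for the slope of log2 expression on gene length within a library, mated or virgin groups alone, each virgin library or replicate number left out, and libraries with testis or other-line transcripts left out. The rule that leaves out 9 libraries, and the fit without Netherlands x Ithaca replicate 2 alone, were chosen after seeing the data. Named with full values were the members called for mating plus the next 2 by p, those called or with the smallest p in the other tests, the 10 with the smallest p for line in virgins and in mated females, and the most abundant of each class; other genes in the text were picked with their values in view. The members and gene lists were chosen with earlier results of these data known.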

Additional observations from a re-analysis of the deposited data

How the results depend on the processing

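No named member's value changed direction under the alternatives run. Calls for mating depended most on the setting. In the mean of lines, where the main count was 1, DESeq2's own test called 4 members, the gene length slope 5, the replicate block 3, the fit without the 8 libraries of the planned limits 2, and the fit without the 9 libraries 3. Leaving out 1 virgin library or 1 replicate number gave 0 to 3. Over all genes the same comparison called 678 of 12045, and 1234 with the gene length slope. The replicate block called 856 genes, and DESeq2's own test 872 of 11405. In Ithaca, where the main count was 0, 1 member (GstE1) was called by DESeq2, with the replicate block, and without 6, 8 or 9 libraries. In Tasmania, where the main count was 1, the replicate block and the fit without 8 libraries called 2 (GstE14 and GstZ2), the fit without 9 libraries 0, and leaving out 1 library or replicate number 0 to 1. For line in virgins the count of 20 ranged from 12 to 21 when 1 library or replicate number was left out, with 12 without replicate 3. Over all genes, calls in Ithaca numbered 21 in the main fit, 45 with the replicate block and 101 of 11873 by DESeq2's own test. Calls in Tasmania numbered 99 in the main fit and 166 with the replicate block. Counts over all genes are not given for the fits that leave out libraries, so the members are not shown to move apart from all genes there. The causes were not tested. Replicate numbers are not pairs by design, although 55 of 89 libraries correlated best with their own number, and the block left the count of members for mated line at 33. Of all counts of members under an alternative, 272 stayed within 1.5 times the main count and 25 did not; of values of single members 518 kept their side of the threshold, 14 passed it and 7 lost it. Library totals from 4407704 to 38799730 counts limit the low members most: GstD6 was not tested, and GstD4 had 0 counts in some Netherlands libraries.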

Other observations

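Chosen after its values were seen, GstS1 had all 3 replicate numbers apart in mated females of 2 lines. In Zimbabwe females the 5 libraries of replicate 1 held 412 to 710 CPM, those of replicate 2 259 to 297 CPM and those of replicate 3 133 to 144 CPM, with no overlap, whichever male line was used. In Tasmania females the ranges were 178 to 230 CPM, 131 to 167 CPM and 114 to 129 CPM. Mated Beijing females followed the same order, at 173.5 to 385.1, 152.4 to 181.8 and 126.6 to 149.2 CPM. There replicates 1 and 2 overlapped and replicate 3 stood apart. Virgin Zimbabwe females held 220, 298 and 266 CPM in replicates 1 to 3. GstS1 was the 1 member of 34 with all 3 replicate numbers apart in these lines, where 0.631% of 12045 genes were apart in Zimbabwe and 0.183% in Tasmania. All replicates were mated in parallel, per the labels.

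At least 1 replicate number stood apart from the others for 5 members in mated Ithaca females, GstD8, GstD9, GstE1, GstE13 and GstT2, where 8.21% of genes did so. GstD9 there ranged from 13.8 to 14.97 CPM in replicate 3 and from 7.03 to 13.6 CPM in the others.

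Single libraries held the highest level of many members: Netherlands x Ithaca replicate 2 for 8, Beijing x Netherlands replicate 2 for 6 and Beijing x Ithaca replicate 2 for 5. Their slopes of expression on gene length were -0.508, -0.316 and -0.417. The same count was not set beside that over all genes, so it is not shown to be particular to this family.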
